A study of Ovis aries with 8 samples.

Results

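The 41 genes described here code for the extracellular matrix of the liver and for the mesenchymal cells that make it, the hepatic stellate cells, fibroblasts and vascular smooth muscle. They comprise 11 collagen chains, 10 other matrix proteins, 11 genes of stellate and mesenchymal cells and 9 genes of matrix turnover and processing. They were chosen by name among the 27729 genes of the deposited table. Of the 41 symbols, 40 were in the table's symbol column. COL4A2 is listed there as LOC101115805, described as the collagen alpha-2(IV) chain, and was matched by Entrez identifier to the current symbol in RefSeq. A mean of at least 1 TPM over all lambs was set as the minimum for a test, and 40 of the 41 reached it, as did 13437 genes in all. LOX, the lysyl oxidase that cross-links collagen and elastin, did not.

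Poly(A) RNA was sequenced from the liver of 8 lambs, 4 in a group labelled ADL and 4 in a group labelled RES. What ADL and RES stand for is not written in the labels, which give no breed, sex or age; the series title concerns fattening lambs whose feed had been restricted while they suckled. All 8 lambs are labelled with a slaughter weight of 27 kg. The values are TPM, a share of transcripts per length that sums to 1000000 in each library, from 14514084 to 16182407 assigned reads per lamb. Because TPM is a share, values depend on the rest of the library: the median tested gene lay 0.095 log2 units higher in RES as deposited, and 0.0056 after division by median-of-ratios size factors. Both scales are given where they differ in direction.

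Fibrillar collagens of types I, III and V form the fibres of portal tracts and of the space between hepatocytes and sinusoids, type IV collagen belongs to basement membranes, and type VI forms beaded filaments. Stellate cells store vitamin A when quiescent and turn into contractile, collagen-producing myofibroblasts when activated. Transforming growth factor beta drives that change, and the balance of metalloproteinases and their inhibitors sets how fast matrix is removed. In healthy liver these cells are a minority beside hepatocytes. In bulk tissue, fewer cells of a type and less RNA per cell cannot be told apart.

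The tissue carried the markers its label implies. The 15 hepatocyte markers summed to 215029 to 230153 TPM in ADL and 171130 to 220326 TPM in RES. Of 19 markers of quiescent stellate cells, 18 were above the minimum, among them the lectin COLEC11 (50.9 to 70.6 TPM) and the transcription factors HAND2 (6.07 to 9.59) and LHX2 (4.35 to 6.26). GFAP, a stellate marker in rodents, was at most 0.167 TPM. ALDH1A1, at a mean of 2081 TPM, is also made by hepatocytes and dominated that list. Several of the 41 genes are not particular to stellate cells: FN1 is also a hepatocyte plasma protein, VIM is made by most non-epithelial cells, and ACTA2, TAGLN and DES are smooth muscle genes.

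The 41 genes covered a wide range of levels, as the plot of levels by lamb shows. FN1, the fibronectin gene, was highest at a mean of 586 TPM and ranked 233 among all genes. Next came the collagen-binding glycoprotein SPARC (171 TPM), the proteoglycan biglycan, BGN (104), the matricellular protein periostin, POSTN (97.4), and COL3A1 (86.2), the chain of type III collagen. BGN, POSTN and COL3A1 lay closer together than their spread over lambs, and their order is not firm. At the low end were THY1, a surface protein of fibroblasts, at 0.986 to 3.18 TPM, COL6A3 at 0.968 to 2.92 TPM and LOX at 0.361 to 0.892 TPM. LOX rested on 4 to 11 reads per lamb and THY1 on 15 to 50 reads, so counting error is large beside those levels. A level also depends on the gene length used, which was 636 bases for TIMP3 and 11764 for RELN.

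**Figure D1:**
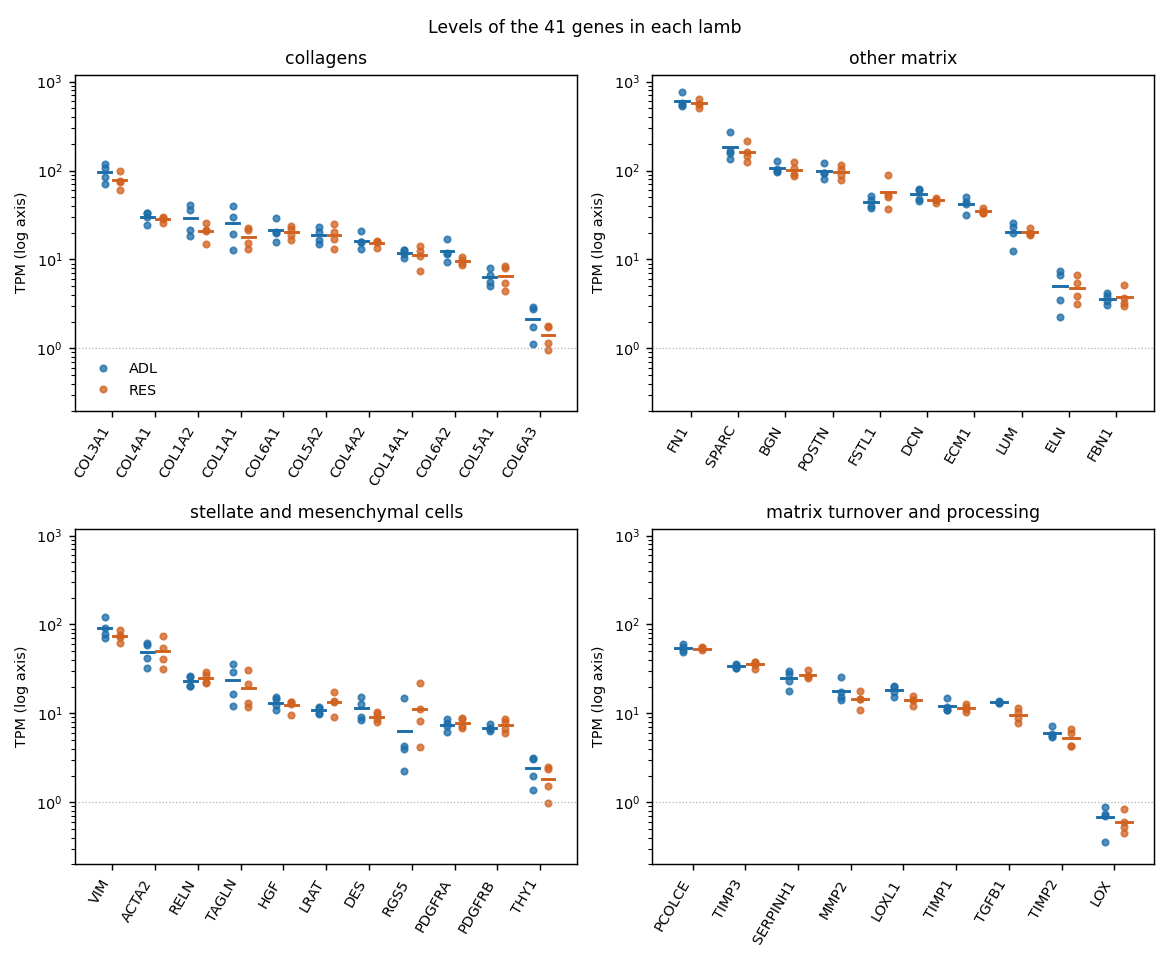
TPM of each of the 41 genes on a log axis, by role; points are lambs (ADL blue, RES orange), short bars are group means and the dotted line is 1 TPM. FN1 lies at 506 to 765 TPM, LOX lies below 1 TPM in every lamb, and TGFB1 is the 1 gene whose groups do not overlap.

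None of the 40 tested genes passed the test between RES and ADL. The smallest limma adjusted p was 0.395, and 0 of 13437 genes passed in all (0.0%). At an unadjusted p under 0.05 there were 2 of the 40, both lower in RES, TGFB1 and LOXL1, where 1.5% of all genes tested were lower and 10.4% higher at that level. In 1 of the 40, TGFB1, the groups did not overlap, and it was lower in RES, against 7.39% of all genes tested (6.61% higher and 0.781% lower). After size-factor scaling, 5 of the 40 were lower and 0 higher at an unadjusted p under 0.05, against 4.25% and 3.4% of all genes, and 2 did not overlap, against 4.63%. Limma's voom on reads recovered from the table also called 0 genes. The authors' deposited table calls 13 of the 5627 genes to which it gives an adjusted p (0.231%), and 0 of the 26 matrix genes among them. At an unadjusted p under 0.05 the authors' deposited table holds 7 of the 41, all lower. In either direction it holds 5.18% of all the genes to which it gives a p. Of the tested genes within the range of mean TPM of the 40, it holds 899 of 11902 in either direction. Its share of all genes that are lower at that level is not given here, so the 7 have no like share beside them. By sign alone it gives 36 of the 41 as lower, and 48.1% of all tested genes.

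By direction alone, 27 of the 40 genes were lower in RES and 13 higher, while 71.0% of all genes tested were higher. Scaled by size factors, 35 were lower and 5 higher, while 51.6% of all genes were higher. The median difference of the 40 was -0.075 log2 units as deposited and -0.18 scaled. The 8 genes that were higher as deposited and lower scaled were COL5A1, LUM, FBN1, ELN, PDGFRA, PDGFRB, ACTA2 and TIMP3, with differences between -0.093 and 0.078 over both scales. Relative to the median of all genes the median of the 40 was -0.17 and -0.18. Without ADL lamb 3 the 40 genes split into 20 lower and 20 higher, and the median relative to all genes was -0.09. Without RES lamb 1, 22 were lower and 18 higher (-0.12), and without ADL lamb 1, 31 were lower and 9 higher (-0.25). The genes were named as a family, not drawn at random, and many vary together, so these counts are a description.

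**Figure D2:**
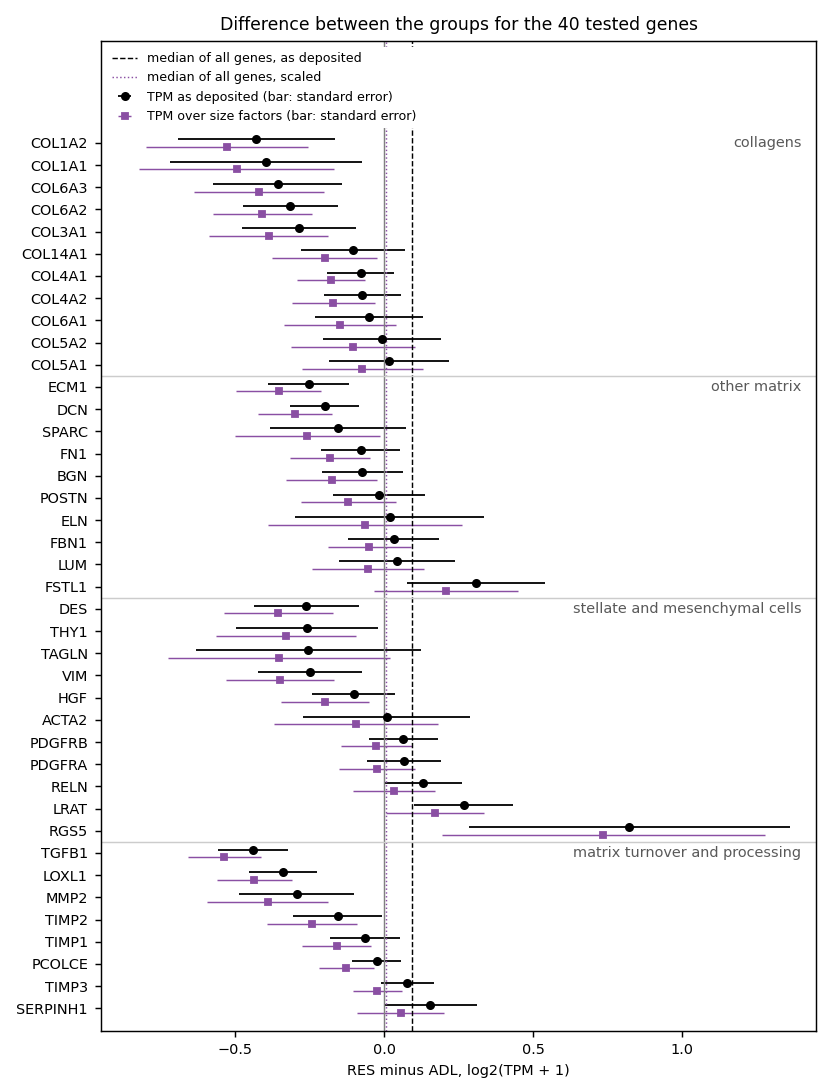
Difference RES minus ADL in log2(TPM + 1) for the 40 tested genes, by role, from the deposited TPM values (black circles) and after size-factor scaling (purple squares), with standard errors; vertical lines mark 0 and the median of all genes on each scale. The collagens lie at or left of 0, with COL1A2 lowest at -0.43, and RGS5 lies farthest right at 0.82 with the widest error.

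Of the 11 collagen chains 0 passed the test, 10 were lower in RES as deposited and all 11 scaled, and their median difference was -0.10 (-0.20 scaled). Type I collagen, the main fibre of scar and of portal tracts, is built from the COL1A1 and COL1A2 chains. COL1A1 stood at 12.8, 30.1, 40.1 and 19.2 TPM across ADL lambs 1 to 4, and 13.04, 15.4, 21.2 and 22.3 TPM across RES lambs 1 to 4. Its highest and lowest values were both in ADL, in lambs 3 and 1, and the RES lambs lay between them. The difference was -0.40 ± 0.32 (SE, limma unadjusted p = 0.2495, adjusted p = 0.607), with a 95% interval of -1.12 to 0.33 that covers both signs.

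COL1A2 stood at 18.6, 36.3, 41.01 and 21.2 TPM across ADL lambs 1 to 4, and 14.9, 21.3, 25.9 and 20.8 TPM across RES lambs 1 to 4. ADL lambs 2 and 3 were above every RES lamb, and ADL lambs 1 and 4 were among the RES lambs. The difference was -0.43 ± 0.26 (SE, limma unadjusted p = 0.137, adjusted p = 0.510). COL3A1 stood at 70.5, 106, 118 and 84.6 TPM across ADL lambs 1 to 4, and 59.9, 74.97, 99.4 and 75.7 TPM across RES lambs 1 to 4, and ADL lambs 2 and 3 were again above every RES lamb. Its difference was -0.29 ± 0.19 (SE, limma unadjusted p = 0.169, adjusted p = 0.538) and its 95% interval -0.72 to 0.15. Without ADL lamb 1 the difference was -0.67 (limma unadjusted p = 0.0347, adjusted p = 0.534) for COL1A1. It was -0.61 (limma unadjusted p = 0.0372, adjusted p = 0.534) for COL1A2 and -0.42 (limma unadjusted p = 0.0488, adjusted p = 0.543) for COL3A1. Without ADL lamb 3 the difference was -0.15 (limma unadjusted p = 0.626, adjusted p = 0.898) for COL1A1, -0.25 (limma unadjusted p = 0.354, adjusted p = 0.788) for COL1A2 and -0.17 (limma unadjusted p = 0.400, adjusted p = 0.805) for COL3A1. Without RES lamb 1 it was -0.26 for COL1A1 and -0.17 for COL3A1.

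Type V collagen, which sets the diameter of type I fibres, did not share that pattern: COL5A1 stood at 6.36 ± 1.32 TPM across ADL against 6.55 ± 1.96 TPM across RES and COL5A2 at 18.8 ± 3.64 TPM across ADL against 18.9 ± 5.05 TPM across RES (mean and SD over 4 lambs, as below). The differences were 0.016 ± 0.20 and -0.0073 ± 0.20. The basement membrane chains COL4A1 and COL4A2 lay close to each other in the size of their differences, at -0.079 ± 0.11 and -0.073 ± 0.13, and varied little between lambs, from 24.3 to 33.2 TPM and from 13.2 to 20.7 TPM. COL14A1, a collagen that coats fibrils, stood at 11.9 ± 1.23 TPM across ADL against 11.2 ± 2.90 TPM across RES, and RES lamb 1 was lowest at 7.33 TPM. In the coordinates of the authors' annotation, for which no source used here names a build, COL4A1 and COL4A2 neighbour each other on chromosome 10, from 84158750 to 84225506 and from 84286692 to 84446171, on opposite strands. COL3A1 and COL5A2 are neighbours on chromosome 2, from 119227288 to 119267823 and from 119061694 to 119210543.

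The 3 chains of type VI collagen had differences of unequal size. COL6A1 stood at 15.8, 20.3, 29.6 and 19.9 TPM across ADL lambs 1 to 4, and 16.7, 19.1, 23.5 and 21.8 TPM across RES lambs 1 to 4. COL6A2 stood at 9.30, 11.8, 16.9 and 11.4 TPM across ADL lambs 1 to 4, and 9.11, 8.72, 10.5 and 9.87 TPM across RES lambs 1 to 4. In ADL the COL6A2 level followed COL6A1 closely, and in RES it lay lower beside it. The difference was -0.05 ± 0.18 for COL6A1 and -0.31 ± 0.16 (SE, limma unadjusted p = 0.0780, adjusted p = 0.451) for COL6A2. COL6A3, the longest and here the scarcest chain, stood at 2.15 ± 0.857 TPM across ADL against 1.42 ± 0.423 TPM across RES, with a difference of -0.36 ± 0.22 (SE, limma unadjusted p = 0.134, adjusted p = 0.506). Without ADL lamb 1 the differences were -0.43 for COL6A2 (limma unadjusted p = 0.0178, adjusted p = 0.534) and -0.53 for COL6A3 (limma unadjusted p = 0.0221, adjusted p = 0.534). Without ADL lamb 3 they were -0.16 (limma unadjusted p = 0.194, adjusted p = 0.724) and -0.24 (limma unadjusted p = 0.320, adjusted p = 0.774).

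A ratio of 2 genes within a library does not depend on the scaling of that library. The ratio of COL6A1 to COL6A2 was 1.70, 1.71, 1.75 and 1.74 across ADL lambs 1 to 4, and 1.83, 2.19, 2.23 and 2.21 across RES lambs 1 to 4. All RES lambs lay above all ADL lambs, and the 4 ADL values lay within 1.70 to 1.75. COL6A1 rested on 477 to 995 reads per lamb and COL6A2 on 246 to 515. Whether the ADL range is narrower than counting error would give was not tested. The log2 ratio was 0.29 higher in RES, with an exact two-sided permutation p of 0.0286 over 70 assignments, the smallest this design allows, and 0.343 after adjustment over the 12 ratios compared. A single ratio could not pass that adjustment in this design. The file also holds LOC105606170, described as collagen alpha-2(VI) chain-like, which starts 136 bases past the end of COL6A2 on the same strand of chromosome 1. No source used here says how reads were divided between these genes, and the COL6A2 value is uncertain as that of a single gene. LOC105606170 stood at 8.76 ± 2.62 TPM across ADL and 6.26 ± 1.56 TPM across RES. An alternative chosen after seeing the data added the TPM of LOC105606170 to that of COL6A2. The ratio of COL6A1 to the sum was 0.936 to 1.057 in ADL and 1.061 to 1.491 in RES. The groups did not overlap (exact permutation p = 0.0286, log2 difference 0.34), but the margin between ADL lamb 4 and RES lamb 1 was narrow. A sum of TPM does not pool reads and lengths, so it cannot settle how reads were divided.

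None of the 12 ratios passed the test after adjustment, that of COL6A1 to COL6A2 included. COL1A1 over COL1A2 was 0.851 ± 0.124 in ADL and 0.872 ± 0.148 in RES (exact permutation p = 0.857), and the trimer is known to hold more alpha 1 than alpha 2 chains. COL3A1 over COL1A1 ranged from 2.95 to 5.51, highest in ADL lamb 1 and lowest in ADL lamb 3. The steadiest of the 12 ratios was COL4A1 over COL4A2, with a coefficient of variation of 7.90% over the 8 lambs. COL5A1 over COL5A2 lay within 0.333 to 0.347 in ADL and spread from 0.267 to 0.487 in RES. COL6A3 over COL6A1 was 0.0990 ± 0.0280 in ADL and 0.0687 ± 0.0115 in RES (exact permutation p = 0.0857, adjusted p = 0.514).

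Of the 10 other matrix genes 0 passed, 6 were lower and 4 higher in RES (9 and 1 scaled), and their median difference was -0.045 (-0.15 scaled). Decorin, DCN, a small proteoglycan that binds collagen fibrils and transforming growth factor beta, stood at 59.7, 45.4, 62.5 and 48.1 TPM across ADL lambs 1 to 4, and 46.5, 43.3, 46.5 and 49.7 TPM across RES lambs 1 to 4. The RES lambs were close together and 2 ADL lambs, 1 and 3, stood above them. The difference was -0.20 ± 0.12 (SE, limma unadjusted p = 0.120, adjusted p = 0.491), and -0.30 scaled (limma unadjusted p = 0.0382, adjusted p = 0.639). ECM1, a secreted glycoprotein, stood at 44.2, 31.8, 51.0 and 42.5 TPM across ADL lambs 1 to 4, and 33.2, 33.4, 34.95 and 38.3 TPM across RES lambs 1 to 4. ADL lamb 2 was the lowest of all and the other ADL lambs were above every RES lamb, with a difference of -0.25 ± 0.14 (SE, limma unadjusted p = 0.0950, adjusted p = 0.469). Without ADL lamb 2 the difference was -0.38 (limma unadjusted p = 0.00484, adjusted p = 0.346) for ECM1 and -0.28 (limma unadjusted p = 0.0375, adjusted p = 0.379) for DCN, and without ADL lamb 3 it was -0.16 and -0.12.

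Lumican, LUM, lies beside DCN on chromosome 3 (from 127222749 to 127232355, and DCN from 127265719 to 127300989) and stood at 20.3 ± 5.73 TPM across ADL against 20.3 ± 1.67 TPM across RES. ADL lamb 1 was its lowest at 12.4 TPM, and LUM over DCN was 0.208 there, against 0.410 to 0.458 in RES. BGN stood at 107 ± 14.98 TPM across ADL against 102 ± 16.7 TPM across RES, and BGN over DCN had an exact permutation p of 0.400. SPARC stood at 181 ± 59.0 TPM across ADL against 161 ± 38.1 TPM across RES, POSTN at 98.1 ± 17.7 TPM across ADL against 96.8 ± 15.9 TPM across RES, and FN1 at 604 ± 108 TPM across ADL against 568 ± 53.5 TPM across RES. The elastic fibre genes were scarcer: fibrillin 1, FBN1, at 3.62 ± 0.480 TPM across ADL against 3.78 ± 1 TPM across RES and elastin, ELN, at 4.97 ± 2.48 TPM across ADL against 4.79 ± 1.596 TPM across RES. The groups overlapped in all of these genes.

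FSTL1, a secreted glycoprotein of mesenchymal cells, lay on the higher side. Its values were 51.9, 40.3, 38.2 and 46.1 TPM across ADL lambs 1 to 4, and 53.4, 88.3, 50.4 and 37.0 TPM across RES lambs 1 to 4. RES lamb 2 stood far above the rest, and RES lamb 4 was the lowest of all lambs. The difference was 0.31 ± 0.23 (SE, limma unadjusted p = 0.213, adjusted p = 0.580), and 0.08 without RES lamb 2 (limma unadjusted p = 0.625, adjusted p = 0.842) and 0.49 without RES lamb 4 (limma unadjusted p = 0.0413, adjusted p = 0.589).

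Of the 11 genes of stellate and mesenchymal cells 0 passed, with 6 higher and 5 lower in RES (3 and 8 scaled) and a median difference of 0.0085 (-0.093 scaled). Genes of the quiescent state showed no common direction. LRAT, the enzyme that esterifies retinol for storage, stood at 10.1, 9.80, 11.4 and 11.9 TPM across ADL lambs 1 to 4, and 9.19, 13.9, 13.4 and 17.4 TPM across RES lambs 1 to 4. The ADL lambs were close together, 3 RES lambs stood above all of them and RES lamb 1 stood below. The difference was 0.27 ± 0.17 (SE, limma unadjusted p = 0.142, adjusted p = 0.514), and without RES lamb 1 it was 0.43 (limma unadjusted p = 0.00722, adjusted p = 0.369). Without RES lamb 4, the highest, it was 0.14 (limma unadjusted p = 0.369, adjusted p = 0.767). Reelin, RELN, a secreted glycoprotein of stellate cells, stood at 23.0 ± 3.35 TPM across ADL against 25.3 ± 3.42 TPM across RES (0.13 ± 0.13), and hepatocyte growth factor, HGF, at 13.2 ± 1.99 TPM across ADL against 12.3 ± 1.85 TPM across RES (-0.10 ± 0.14).

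The receptors for platelet-derived growth factor were steady. PDGFRB, which marks stellate cells and pericytes, stood at 6.91 ± 0.542 TPM across ADL against 7.33 ± 1.16 TPM across RES, and PDGFRA at 7.48 ± 1.07 TPM across ADL against 7.87 ± 1.03 TPM across RES. Their ratio had an exact permutation p of 1 and ranged from 0.843 to 1.34. The 95% interval of the difference was -0.20 to 0.33 for PDGFRB and -0.21 to 0.35 for PDGFRA.

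RGS5, a regulator of G-protein signalling found in pericytes and stellate cells, varied most of the 41 genes, with a coefficient of variation of 76.4%. It stood at 14.9, 4.25, 2.25 and 4.00 TPM across ADL lambs 1 to 4, and 8.21, 21.8, 4.23 and 11.1 TPM across RES lambs 1 to 4. RES lamb 2 and ADL lamb 1 were high and ADL lamb 3 was lowest, so the groups overlapped widely. The difference was 0.82 ± 0.54 (SE, limma unadjusted p = 0.160, adjusted p = 0.529) and without ADL lamb 1 it was 1.28 (limma unadjusted p = 0.0193, adjusted p = 0.534). It was 0.46 (limma unadjusted p = 0.398, adjusted p = 0.718) without RES lamb 2 and 0.52 (limma unadjusted p = 0.371, adjusted p = 0.796) without ADL lamb 3. RGS5 rested on 42 to 385 reads per lamb.

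In the contractile genes RES lamb 1 stood elsewhere than in the collagens. ACTA2, the smooth muscle actin that marks activated stellate cells and vessel walls, stood at 32.5, 59.0, 62.03 and 42.2 TPM across ADL lambs 1 to 4, and 73.3, 31.6, 40.5 and 54.7 TPM across RES lambs 1 to 4. RES lamb 1 was highest for ACTA2, although it was lowest for 6 of the 11 collagens. Transgelin, TAGLN, an actin-binding protein, stood at 12.3, 35.6, 29.4 and 16.7 TPM across ADL lambs 1 to 4, and 30.9, 11.96, 12.98 and 21.3 TPM across RES lambs 1 to 4, again with RES lamb 1 among the high lambs. TAGLN over ACTA2 was 0.463 ± 0.103 in ADL and 0.378 ± 0.0426 in RES (exact permutation p = 0.200). The muscle filament gene desmin, DES, stood at 11.5 ± 3.21 TPM across ADL against 9.19 ± 1.05 TPM across RES, and vimentin, VIM, at 90.3 ± 23.1 TPM across ADL against 74.7 ± 10.2 TPM across RES. THY1 stood at 2.41 ± 0.881 TPM across ADL against 1.85 ± 0.715 TPM across RES and its groups overlapped. The 14 smooth muscle markers found summed to 283 to 381 TPM in ADL and 295 to 379 in RES, with ADL lamb 3 and RES lamb 1 highest. How much smooth muscle of vessels each piece held was not tested.

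As deposited, matrix turnover and processing held the only 2 of the 40 genes at a limma unadjusted p under 0.05. After size-factor scaling COL6A2, DCN and ECM1 were lower at that level too (limma unadjusted p = 0.0353, 0.0382 and 0.0355, adjusted p = 0.639 each). The authors' deposited table also holds COL1A2, COL6A2, COL6A3, DCN and ECM1 at an unadjusted p under 0.05. Of the 9 turnover and processing genes 8 were tested, and 6 were lower and 2 higher in RES (7 and 1 scaled). Their median difference was -0.11 (-0.20 scaled). TGFB1, the cytokine that activates stellate cells and raises collagen synthesis, is made by macrophages, platelets and other cells as well. It stood at 13.7, 13.2, 13.4 and 13.01 TPM across ADL lambs 1 to 4, and 11.6, 8.82, 10.4 and 7.74 TPM across RES lambs 1 to 4. The ADL lambs lay within 13.01 to 13.7 TPM, and every RES lamb was below them. The difference was -0.44 ± 0.12 (SE, limma unadjusted p = 0.00440, adjusted p = 0.395), with a 95% interval of -0.71 to -0.18. Over 17 settings of the fit it ranged from -0.59 to -0.33, with an unadjusted p between 0.00102 and 0.0144 and an adjusted p between 0.328 and 0.684. The authors' deposited table gives TGFB1 a shrunken log2 fold change of -0.45 ± 0.14 (SE, p = 0.00171) and no adjusted p. TGFB1 rested on 65 to 128 reads per lamb. Whether its ADL range is narrower than counting error would give was not tested. The 14 macrophage markers found summed to 1052 to 1311 TPM in ADL and 835 to 1637 in RES. The sum was highest in RES lamb 1 and lowest in RES lamb 4, which were also the highest and lowest RES lambs for TGFB1. Over both groups the order differed: RES lamb 1, with a sum of 1637, had 11.6 TPM of TGFB1, below every ADL lamb. ADL lamb 3, with a sum of 1052, had 13.4 TPM of TGFB1. The part of macrophages in the TGFB1 level was not tested.

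LOXL1, an oxidase that cross-links elastin, stood at 17.2, 15.3, 20.3 and 19.7 TPM across ADL lambs 1 to 4, and 14.2, 15.7, 14.3 and 12.2 TPM across RES lambs 1 to 4. The groups overlapped by 1 pair of lambs, since ADL lamb 2 lay below RES lamb 2, and they did not overlap after size-factor scaling. The difference was -0.34 ± 0.11 (SE, limma unadjusted p = 0.0157, adjusted p = 0.395) and ranged from -0.47 to -0.27 over the 17 settings, with an adjusted p between 0.328 and 0.684. The authors' deposited table gives LOXL1 -0.39 ± 0.13 (adjusted p = 0.204). The values of its relative LOX were 0.361, 0.705, 0.892 and 0.745 TPM across ADL lambs 1 to 4, and 0.457, 0.600, 0.525 and 0.833 TPM across RES lambs 1 to 4, too few reads for a comparison.

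The protease and its inhibitors did not separate the groups. MMP2, the gelatinase made by stellate cells and fibroblasts, stood at 14.3, 15.1, 25.5 and 17.4 TPM across ADL lambs 1 to 4, and 10.99, 14.4, 17.8 and 14.4 TPM across RES lambs 1 to 4. ADL lamb 3 was highest and RES lamb 1 lowest, with a difference of -0.29 ± 0.19 (SE, limma unadjusted p = 0.161, adjusted p = 0.529). Without ADL lamb 3 it was -0.12 (limma unadjusted p = 0.447, adjusted p = 0.828), and without RES lamb 1 it was -0.18 (limma unadjusted p = 0.378, adjusted p = 0.684). The inhibitors stood at 12.1 ± 1.88 TPM across ADL against 11.5 ± 1.07 TPM across RES for TIMP1, 6.002 ± 0.802 TPM across ADL against 5.35 ± 1.23 TPM across RES for TIMP2 and 33.8 ± 1.78 TPM across ADL against 35.8 ± 3.17 TPM across RES for TIMP3, which varied little, with a coefficient of variation of 7.51%. TIMP1 over MMP2 was 0.706 ± 0.192 in ADL and 0.819 ± 0.164 in RES (exact permutation p = 0.486), and TIMP2 over MMP2 had an exact permutation p of 0.714. PCOLCE, which speeds the trimming of procollagen, was the steadiest of the 41 genes, at 54.6 ± 4.73 TPM across ADL against 53.5 ± 1.76 TPM across RES and a coefficient of variation of 6.202%. SERPINH1, the collagen chaperone of the endoplasmic reticulum, stood at 24.8 ± 5.43 TPM across ADL against 27.3 ± 2.70 TPM across RES (0.15 ± 0.16).

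Other genes of the matrix pathway, in lists that exclude the 41, gave 0 calls at an adjusted p under 0.05 as well (smallest limma adjusted p 0.395). At an unadjusted p under 0.05, beside the 10.4% of all genes higher and 1.5% lower, the higher and lower counts by list were 3 and 1 of 22 elastic fibre and small matrix genes, 2 and 0 of 12 basement membrane genes, 4 and 0 of 15 proteases and inhibitors, 2 and 1 of 16 matrix receptors, 1 and 0 of 21 genes of collagen assembly, 1 and 0 of 21 of transforming growth factor beta signalling, 0 and 1 of 6 of platelet-derived and hepatocyte growth factor signalling and 0 and 0 of 11 other collagens. After size-factor scaling, beside 3.4% of all genes higher and 4.25% lower, the counts in the same order of lists were 3 and 5, 0 and 1, 1 and 2, 0 and 2, 0 and 1, 0 and 1, 0 and 1, 0 and 1. As deposited, groups did not overlap in 3 higher and 1 lower of the 22 elastic fibre and small matrix genes. For the other lists in the same order the counts were 0 and 0, 1 and 0, 1 and 0, 1 and 0, 1 and 0, 0 and 1, 0 and 0. Of all genes tested, 6.61% were higher and 0.781% lower without overlap. Among the other collagens COL4A4 had the smallest p, at 2.74 ± 0.223 TPM across ADL against 2.07 ± 0.569 TPM across RES, a difference of -0.30 ± 0.14 (SE, limma unadjusted p = 0.0617, adjusted p = 0.435).

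Asporin, ASPN, a small leucine-rich protein of the decorin family, stood at 72.9, 65.9, 73.2 and 67.6 TPM across ADL lambs 1 to 4, and 86.5, 87.0, 89.7 and 95.2 TPM across RES lambs 1 to 4. All RES lambs were above all ADL lambs, the opposite side from DCN, with a difference of 0.35 ± 0.075 (SE, limma unadjusted p = 0.00105, adjusted p = 0.395) and 0.25 scaled. CCN1, a matricellular early-response gene listed as CYR61, stood at 3.80, 3.71, 2.78 and 4.44 TPM across ADL lambs 1 to 4, and 7.43, 11.1, 5.88 and 6.41 TPM across RES lambs 1 to 4, and its groups did not overlap either, a difference of 0.87 ± 0.19 (SE, limma unadjusted p = 0.00115, adjusted p = 0.395). Thrombospondin 1, THBS1, which can activate latent transforming growth factor beta, stood at 3.56, 4.08, 3.59 and 3.61 TPM across ADL lambs 1 to 4, and 5.83, 5.55, 4.12 and 6.28 TPM across RES lambs 1 to 4. As deposited, every RES lamb was above the ADL lambs, by a narrow margin in RES lamb 3, a difference of 0.44 ± 0.12 (SE, limma unadjusted p = 0.00527, adjusted p = 0.395). After size-factor scaling RES lamb 3 lay below ADL lamb 2 for THBS1, and the difference was 0.36 (limma unadjusted p = 0.0112).

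MFAP4, a microfibril protein of elastic fibres, lay the other way, at 7.10, 11.1, 11.8 and 7.08 TPM across ADL lambs 1 to 4, and 3.52, 4.74, 5.72 and 5.58 TPM across RES lambs 1 to 4. All RES lambs were below all ADL lambs, with a difference of -0.79 ± 0.19 (SE, limma unadjusted p = 0.00287, adjusted p = 0.395). HGFAC, the protease that activates hepatocyte growth factor and is made by hepatocytes, stood at 88.1, 85.2, 103 and 114 TPM across ADL lambs 1 to 4, and 76.8, 83.4, 75.5 and 78.4 TPM across RES lambs 1 to 4. Its groups did not overlap, a difference of -0.30 ± 0.10 (SE, limma unadjusted p = 0.0179, adjusted p = 0.395), and the authors' deposited table gives it an adjusted p of 0.109. BMP1, which trims procollagen ends, stood at 13.9 ± 1.18 TPM across ADL against 18.3 ± 3.41 TPM across RES, a difference of 0.37 ± 0.13 (SE, limma unadjusted p = 0.0187, adjusted p = 0.395). After size-factor scaling the BMP1 groups overlapped, and the difference was 0.27 (limma unadjusted p = 0.0519).

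**Figure D3:**
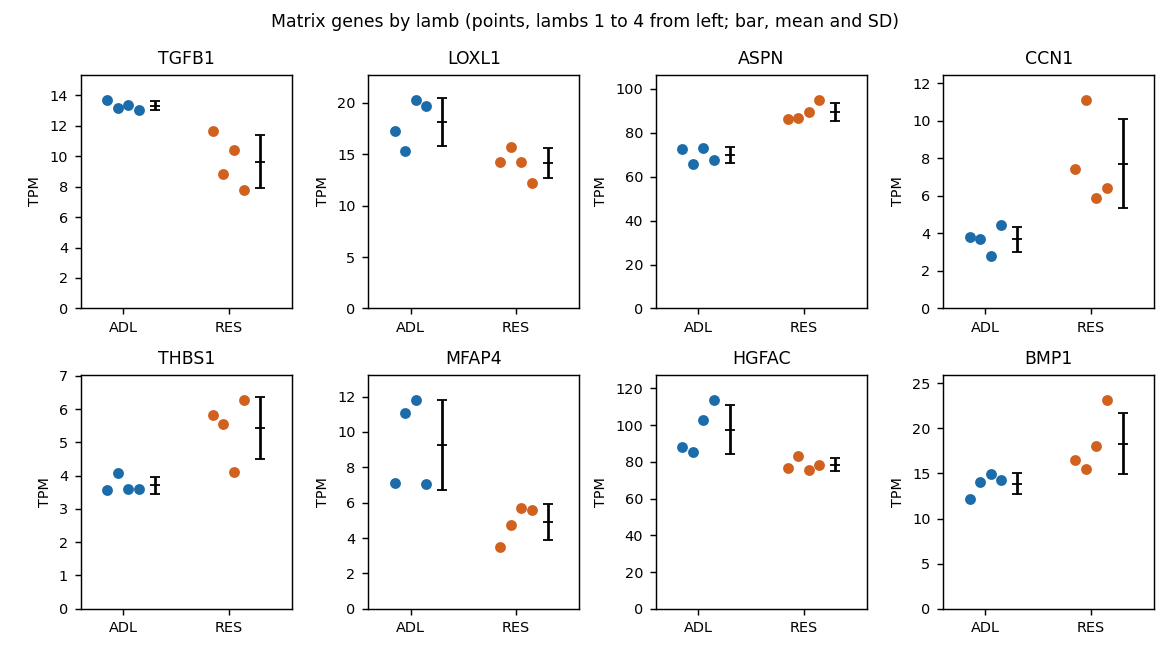
TPM of 8 matrix genes in each lamb (points, ADL blue and RES orange, each axis from 0), with group mean and SD (bars, n = 4). The 8 were picked after their values were seen. As deposited, TGFB1, MFAP4 and HGFAC are lower in every RES lamb than in any ADL lamb, and ASPN, CCN1, THBS1 and BMP1 are higher. After size-factor scaling the groups overlap for THBS1 and BMP1. LOXL1 overlaps by 1 pair of lambs, and none of the 8 passes the adjusted test. Of all genes tested, 7.39% do not overlap (6.61% higher and 0.781% lower in RES).

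The remaining genes named from these lists were higher in RES at an unadjusted p under 0.05, except LAIR1. The laminin chains LAMB1 and LAMA5 stood at 17.8 ± 1.32 TPM across ADL against 22.0 ± 2.34 TPM across RES and at 4.31 ± 1.05 TPM across ADL against 6.93 ± 2.63 TPM across RES. The shedding proteases ADAM10 and ADAM17 stood at 6.89 ± 0.535 TPM across ADL against 8.48 ± 0.394 TPM across RES and at 10.8 ± 1.05 TPM across ADL against 13.5 ± 1.24 TPM across RES. MMP15, a membrane-bound protease, stood at 11.99 ± 3.44 TPM across ADL against 16.6 ± 2.48 TPM across RES and SMAD2, a transducer of transforming growth factor beta signals, at 4.96 ± 0.714 TPM across ADL against 6.12 ± 0.614 TPM across RES. The collagen and laminin receptor subunits ITGB1 and ITGA1 stood at 108 ± 3.21 TPM across ADL against 123 ± 5.004 TPM across RES and at 8.42 ± 3.02 TPM across ADL against 12.7 ± 2.23 TPM across RES. LAIR1, a collagen receptor of leukocytes listed as LOC101118515, stood at 1.59 ± 0.375 TPM across ADL against 0.909 ± 0.567 TPM across RES. After size-factor scaling, of these 9 genes LAIR1 alone kept an unadjusted limma p under 0.05.

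For many of the matrix genes the same lambs held the extremes. ADL lamb 3 held the highest value for 18 of the 40 tested genes and for 7 of the 11 collagens, while it held the highest value of 6.86% of all genes tested. RES lamb 1 held the lowest value for 14 of the 40 and 6 of the 11 collagens, against 8.24% of all genes. ADL lamb 1 was lowest for 8 of the 40, against 20.9%. After size-factor scaling ADL lamb 3 was highest for 25 and RES lamb 1 lowest for 19, against 13.9% and 12.7% of all genes. The median coefficient of variation over the 8 lambs was 19.7% for the 40 genes and 23.2% for the collagens, and 15.8% for all genes tested.

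**Figure D4:**
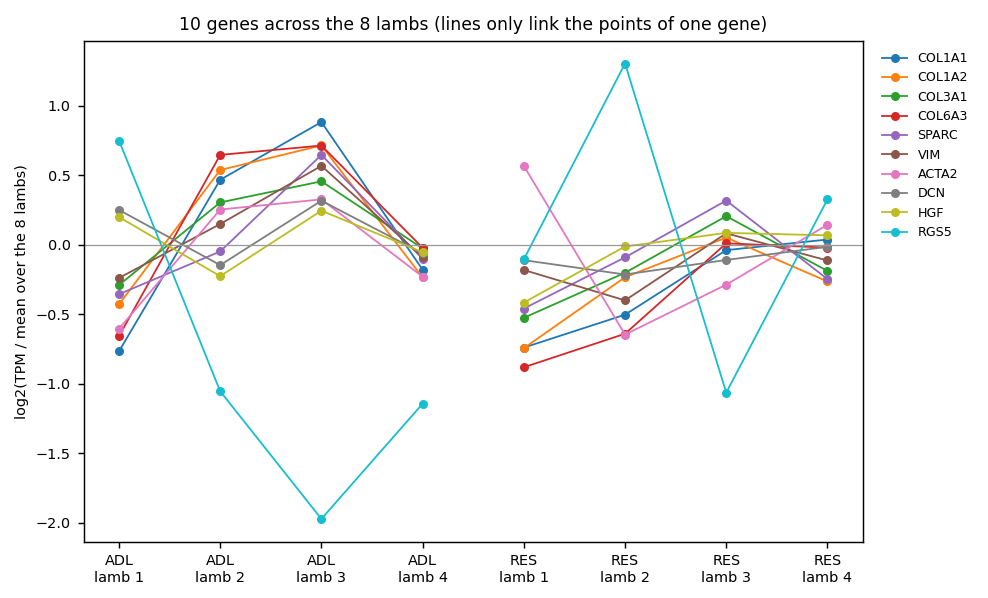
Level of 10 of the genes in each lamb relative to the gene's mean over the 8 lambs (log2 of the TPM ratio); lines link the points of one gene within a group, and the 10 were picked after their values were seen. The collagens, SPARC and VIM peak in ADL lamb 3 within ADL, RGS5 is lowest there, and ACTA2 is high in RES lamb 1, where the collagens are low.

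Several collagen chains varied together over the lambs. Pearson's r of log2(TPM + 1) with COL1A1 over the 8 lambs was above 0 for 34 of the other 39 tested genes. Its median was 0.51, against -0.12 for all genes tested, which share the libraries and their scaling with COL1A1. It was above 0.8 for 8 of the 39 genes and for 0.439% of all genes tested. It passed an adjusted p of 0.05 over these 39 relations in 7 genes, and Spearman's rho passed in COL6A3 alone. Closest was COL6A3, with r = 0.97 (exact permutation p = 0.000322, adjusted p = 0.0126), rho = 0.95 (exact permutation p = 0.00114, adjusted p = 0.0445). COL1A2 followed with r = 0.94 (exact permutation p = 0.000645, adjusted p = 0.0126), rho = 0.81 (exact permutation p = 0.0218, adjusted p = 0.106), and COL3A1 with r = 0.91 (exact permutation p = 0.00203, adjusted p = 0.0166), rho = 0.90 (exact permutation p = 0.00456, adjusted p = 0.0593). VIM had r = 0.90 (exact permutation p = 0.00213, adjusted p = 0.0166), rho = 0.86 (exact permutation p = 0.0107, adjusted p = 0.104), and COL6A2 had r = 0.89 (exact permutation p = 0.00198, adjusted p = 0.0166), rho = 0.81 (exact permutation p = 0.0218, adjusted p = 0.106). The last 2 were COL6A1, with r = 0.89 (exact permutation p = 0.00362, adjusted p = 0.0202), rho = 0.90 (exact permutation p = 0.00456, adjusted p = 0.0593), and COL4A2, with r = 0.87 (exact permutation p = 0.00350, adjusted p = 0.0202), rho = 0.69 (exact permutation p = 0.0694, adjusted p = 0.159).

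Without ADL lambs 1 and 3, the 2 lambs farthest from the COL1A1 median, r over the other 6 lambs was 0.98 for COL6A3, 0.90 for COL1A2, 0.86 for COL3A1, 0.78 for VIM and 0.80 for COL6A2. For COL6A1 and COL4A2 it was 0.67 and 0.62. Groups of 4 are too small for an r within each, and with the group means removed the 7 values lay between 0.88 and 0.98.

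None of the 7 genes that are also on the list of quiescent stellate markers passed the adjusted threshold for r with COL1A1. DES was the highest, with r = 0.76 (exact permutation p = 0.0302, adjusted p = 0.0887), rho = 0.50 (exact permutation p = 0.216, adjusted p = 0.383); without the 2 lambs its r was 0.40. The r was 0.32 for ECM1, 0.30 for HGF, 0.15 for PDGFRB, 0.13 for RELN and 0.13 for LRAT (adjusted p between 0.568 and 0.749, exact permutation). RGS5, the lowest, had r = -0.75 (exact permutation p = 0.0341, adjusted p = 0.0887), rho = -0.62 (exact permutation p = 0.115, adjusted p = 0.224); without the 2 lambs its r was -0.52. PDGFRA, TAGLN and ACTA2 had an r of 0.34, 0.53 and 0.43, none past the adjusted threshold. TGFB1 had r = 0.16 (exact permutation p = 0.705, adjusted p = 0.749), rho = -0.024 (exact permutation p = 0.977, adjusted p = 0.977). FSTL1 (-0.64), TIMP3 (-0.58), FN1 (-0.41) and TIMP1 (-0.17) also had an r below 0, none of them past the adjusted threshold.

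**Figure D5:**
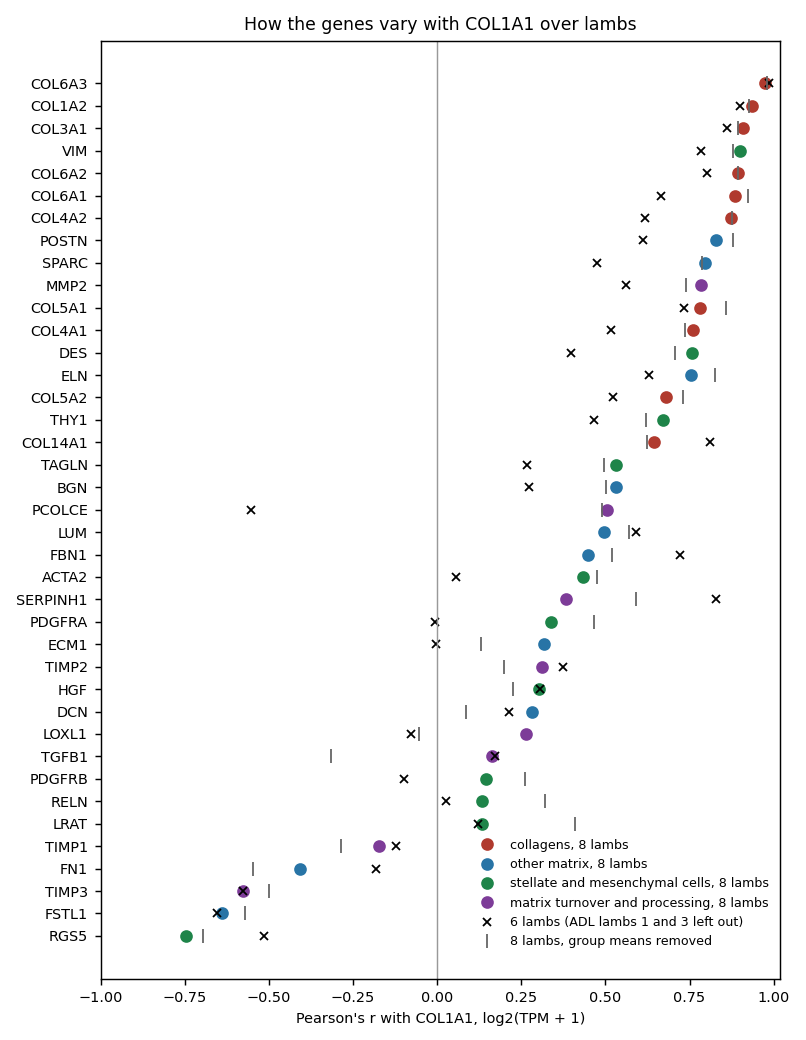
Pearson's r with COL1A1 over lambs for 39 genes, coloured by role (circles, 8 lambs), without ADL lambs 1 and 3 (crosses) and with the group means removed (ticks). Collagens hold 6 of the top 7 places, led by COL6A3 at 0.97, and RGS5 is lowest at -0.75.

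Outside the 41 genes, the 5 tested genes whose levels were most like COL1A1 over the 8 lambs were SUSD2 (r = 0.94), SIAE (0.94), ABCA4 (0.93), PSKH1 (0.93) and SLC35B2 (0.92). They were picked as the highest of all genes, so no p is given.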

How the data were processed

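Per the labels' protocols, poly(A) RNA of liver from 8 lambs was sequenced as paired reads of 100 bases. Bcl2fastq 1.8.4 and DESeq2 1.12.4 are listed, per the submitters' processing notes; no source used here names an aligner, counter, strand setting or genome build.

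The authors deposited TPM values per lamb and, from DESeq2 per the file headers, a mean of normalized counts (a signal divided by size factors), log2 fold changes with standard errors, a Wald score, and p-values with adjusted p-values. TPM times the deposited gene length gave whole reads for 100% of values (tolerance 1e-06), so depth is known.

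Genes averaging 1 TPM or more over the lambs were compared as log2(TPM + 1) by limma 3.58.1 with a trend (R 4.3.3), Benjamini-Hochberg adjusted over 13437 genes, with a threshold of 0.05; each difference is the RES mean less the ADL mean. Replicates are separate lambs. The test was checked on simulated data with independent noise, where changes were added on the log2(TPM + 1) scale. At an adjusted p under 0.05 it called 9.2% of 1.3-fold, 40% of 1.5-fold and 76% of 2-fold changes, and 0.0423% of unchanged genes. Changes of the smaller sizes would mostly be missed. In a gene at a few TPM a given fold change of TPM is smaller on that scale, so these rates are too high for such genes. Ratios were compared by exact two-sided permutation, and correlations by exact permutation of pairings. Size factors are medians of ratios over genes above 0 in every lamb. Of 328 symbols in the members' and the 18 other lists, 320 were found, 8 of them by Entrez identifier under their present symbol.

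All 41 genes are named. From each pathway list, up to 4 further genes at an unadjusted p under 0.05 are named, otherwise the 1 with the smallest p, with the 5 genes most like COL1A1 and the highest markers; 2 genes under this rule are not reported here. The members and lists were chosen with earlier results of these data known. No sequences were used here.

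Alternatives were pseudocounts of 0.1 and 5, no filter, a minimum of 5 TPM, size factors, quantile normalization, voom on recovered reads, a replicate block, an adjusted p under 0.1 and each lamb left out.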

Additional observations from a re-analysis of the deposited data

Results flagged for a closer look

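Of 82 groups of 4 values tested for the 41 genes and 24 for the ratios, 2 held a lamb far from the others, where chance flags about 1 in 20. RGS5 stood at 14.9 TPM in ADL lamb 1, and the other ADL lambs lay between 2.25 and 4.25 TPM. The same lamb was lowest of all for COL1A1. The ratio of COL6A1 to COL6A2 was 1.83 in RES lamb 1 and 2.19 to 2.23 in the other RES lambs, and it still lay above every ADL lamb.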

How the results depend on the processing

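No member passed an adjusted p of 0.05 or 0.1 under any setting tried. Over all genes, 1 passed with no filter on low values, and 0 to 1 with each lamb left out. Members lower in RES at an unadjusted p under 0.05 numbered 2 as reported, 5 each with size factors, quantile normalization and voom, 6 with the replicate block, and 2 to 7 with each lamb left out; members higher numbered 0, and 0 to 1 with each lamb left out. The 7 came without ADL lamb 1, and without ADL lamb 2 there were 4. Of all genes tested, 1.5% were lower at that level as reported and 4.25% with size factors. That share is not given for the other settings, so their member counts cannot be set beside all genes. Groups did not overlap in 1 member as reported and in 2 with size factors, an alternative chosen after seeing the data. Lambs of equal number share only that number: the pairing check gave correlations of their deviations from the group means of 0.15, -0.12, 0.054 and 0.058. The fit with the replicate block changed no adjusted call of a member, and the cause of its 6 was not tested; for the COL6A1 to COL6A2 ratio the replicate block allows no exact p below 0.125. TGFB1 and LOXL1 kept their direction and an unadjusted p under 0.05 in all 17 settings. Both were singled out for a small p in the fit as reported, and every setting reuses the same lambs, so this is not independent support. With size factors 8 members changed sign. LOX and THY1 are limited by depth. TGFB1 (65 to 128 reads per lamb) and TIMP1 (60 to 97) are among the other members with few reads.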

Other observations

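Among markers of quiescent stellate cells outside the 41 genes, 2 stood higher in RES at an unadjusted p under 0.05, and both were picked after their values were seen. Of all 18 tested markers of that list, 2 were higher and 0 lower at that level, where 10.4% of all genes tested were higher, and after size-factor scaling 1 was higher and 1 lower. PTH1R, a parathyroid hormone receptor, stood at 13.3 ± 1.08 TPM across ADL against 17.6 ± 1.61 TPM across RES, a difference of 0.37 ± 0.10 (SE, limma unadjusted p = 0.00358, adjusted p = 0.395), with every RES lamb above every ADL lamb. CXCL12, a chemokine of mesenchymal cells, stood at 83.6 ± 1.64 TPM across ADL against 104 ± 19.2 TPM across RES, a difference of 0.29 ± 0.13 (SE, limma unadjusted p = 0.0432, adjusted p = 0.416). Of the 18 tested markers of quiescent stellate cells, 7 of them among the 41 genes, 11 were higher and 7 lower in RES (8 and 10 scaled), with a median of 0.05, which was -0.045 scaled. Of 13 tested markers of activated stellate cells and fibroblasts, most of them among the 41 genes, 3 were higher and 10 lower (median -0.15). The first list was led by ALDH1A1, with CXCL12 among its highest, and the highest of the second were SPARC, POSTN and COL3A1.

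Markers of other cells gave these values beside them. Of 9 tested markers of portal fibroblasts and mesothelium (highest GPC3, CLEC3B and DPT), 2 were higher and 7 lower in RES, with a median of -0.12; CLEC3B stood at 61.7 ± 7.72 TPM across ADL against 47.0 ± 10.7 TPM across RES, and WT1, UPK3B and ENTPD2 were at most 0.135 TPM. Of 12 smooth muscle markers (CALD1, ACTA2 and MYLK), 4 were higher and 8 lower (median -0.19), and MYLK stood at 33.0 ± 0.981 TPM across ADL against 41.7 ± 8.57 TPM across RES. Endothelial markers (CLEC4G, LYVE1 and CLEC1B) split into 10 higher and 5 lower, 6 and 9 scaled (median 0.078, -0.02 scaled). Their summed level was 279.6 to 305 TPM in ADL and 300.2 to 318 in RES, lowest in ADL lamb 3.

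Of 13 tested Kupffer cell and macrophage markers (C1QB, CD5L and C1QC), 2 were higher and 11 lower in RES, with a median of -0.16. Bile duct markers (KRT8, ANXA4 and KRT18) were higher in 10 of 10 (median 0.14) and in 7 of 10 scaled. Hepatocyte markers (ALB, FGB and AHSG) were higher in 4 and lower in 11 of 15 (median -0.12). Lymphocyte markers (PTPRC, CD3E and CD8A) were higher in 5 and lower in 3 of 8, and scaled in 3 and 5 (median 0.049, -0.039 scaled), and the 4 red cell markers found (led by AHSP, ALAS2 and HBM) were all under 1 TPM on average.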
